A study of Mus musculus with 4 samples.

Results

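Adipocyte genes were followed in RNA of mouse colon on 4 microarrays. The set was *Adipoq*, *Lep*, *Cfd*, *Retn*, *Plin1*, *Plin4*, *Cidec*, *Fabp4*, *Lipe* and *Pparg*, and its probes were found in the array files by gene name. The set was chosen with earlier results of these data known, so its counts are a description and not an independent result. These 10 genes had 12 probes, of 39423 probes and 22259 named genes on the array. *Cidec* and *Retn* had 2 probes each and the other 8 genes had 1. The study asked how loss of *Pla2g3*, the gene for a secreted phospholipase A2, changes the colon of mice with and without azoxymethane (AOM), which is used to raise tumors in the mouse colon. All mice were male, 42 weeks old and littermates on a B6.129 background at backcross 3. The 4 groups were *Pla2g3*+/+ with vehicle, *Pla2g3*-/- with vehicle, *Pla2g3*+/+ with AOM and *Pla2g3*-/- with AOM. AOM was injected into the peritoneum at 10 mg/kg weekly for 6 weeks, the vehicle was saline, and colons were removed 28 weeks after the last injection. Each array held RNA of 1 pool of 3 to 5 mice, so that no comparison had a replicate and none could be tested. The sample labels call the AOM tissue colorectal cancer, whereas the study's figure legend names the whole descending colon for all groups. That legend also gives pools of 4 mice for each genotype.

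White adipocytes store triglyceride in a large lipid droplet and release hormones called adipokines. Proteins of the perilipin and CIDE families coat the droplet and control the access of lipases, and the nuclear receptor PPARG drives the expression of many of these genes. The colon holds adipocytes mainly in the fat attached along its outer wall, and some of the genes are also known in other cells, *Pparg* in colon epithelium, *Fabp4* in capillary endothelium and macrophages, and *Plin4* in muscle.

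A signal is the background-subtracted intensity of a probe, and a level is its quotient with the 75th percentile of the array. The 75th percentile was 645.6 and 649.8 on the *Pla2g3*+/+ and *Pla2g3*-/- vehicle arrays and 1309 and 1169 on the AOM arrays. Of 43020 spots, 64.8% to 69.4% were well above background. For the 307 to 317 probes per array with several spots and well above background, replicate spots differed with a median SD of 0.057 to 0.066 on the log2 scale. This is the error of the array alone, and for bright probes only. The dim *Lep* probe had an SD of 0.27 to 0.49, and most members had 1 spot. The targeted gene went against the labels: the level of the brightest *Pla2g3* probe was 0.531 and 0.656 on the +/+ and -/- vehicle arrays and 0.232 and 1.4 on the AOM arrays, 1.23-fold and 6.01-fold higher in the pools labelled -/-. Whether these probes lie in the deleted stretch is not given in the sources used here, and the genotypes below are those of the labels. The -/- vehicle array also stood apart by pancreatic acinar genes, of which 11 of 12 were over 2-fold higher than on the +/+ vehicle array, as were 1.92% of all genes.

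The probes report on short stretches of each transcript. The first 30 of 60 bases are shown 5′ to 3′ for *Cfd*, *Adipoq* and *Plin4*, which differed widely between arrays, for *Lep*, which was not measured, for *Pparg*, which differed least, and for both probes of *Cidec* and *Retn*, which gave different ratios. Positions are those of the whole probe on mm9, and no base is capitalized.
*Cfd*, chr10:79355302-79355361, plus strand: aacatcacaaatggtaacatgacatcctga
*Adipoq*, chr16:23157576-23157635, plus strand: tgtatggggatggggaccacaatggactct
*Plin4*, chr17:56240055-56240114, minus strand: cagcctgtgggtatgagacctgccctgaat
*Lep*, chr6:29023234-29023293, plus strand: agtttggatcttgggttttctgttaagaga
*Pparg*, chr6:115440213-115440272, plus strand: gcaggaaagtcccacccgctgacaacgtgt
*Cidec*, brighter probe, chr6:113374630-113374689, minus strand: tttttccacgaatgagtgaatggtattaga
*Cidec*, dimmer probe, chr6:113378116-113378175, minus strand: tctatgacacatactcgctttcctatgacc
*Retn*, brighter probe, chr8:3657312-3657371, plus strand: aaagtgtgtcactgccagtgtgcaaggata
*Retn*, dimmer probe, chr8:3659757-3659816, plus strand: actcacgtgcgcgaatccacacacaagcac
The *Cidec* probes lie 3426 bases apart and the *Retn* probes 2385 bases apart. "Brighter" refers to the mean of the log2 signals over the 4 arrays, and each gene is represented by its brighter probe where genes are counted.

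The stretches upstream of the transcription starts were searched for 4 motifs on both strands, because C/EBP factors and PPARG with its partner RXR are known regulators of adipocyte genes. RefSeq windows of GRCm38.p6 were at hand for 9 of the 10 members, with 13 starts in all, and 250 bases before each start were read. TTGCNNAA, a core of C/EBP sites, was present upstream of *Lep*, *Plin1*, *Cidec* and *Pparg*, 4 of 9 members, and upstream of 10.8% of 27025 genes. A direct repeat of AGGTCA with 1 base between the copies, as PPARG with RXR prefers, was found in none of the 9 members and in 0.0407% of all genes. The single copy AGGTCA was present upstream of *Pparg* alone among the members and of 15.8% of all genes, and TATAAA likewise of *Pparg* alone and of 14.3%. Every repeat also counts as a single copy. The windows of *Lep*, *Cidec* and *Plin1* are printed because they hold TTGCNNAA, in capitals, and because *Cidec* and *Plin1* moved together on the arrays while *Lep* stayed below detection.
*Lep*, chr6:29059971-29060220, plus strand: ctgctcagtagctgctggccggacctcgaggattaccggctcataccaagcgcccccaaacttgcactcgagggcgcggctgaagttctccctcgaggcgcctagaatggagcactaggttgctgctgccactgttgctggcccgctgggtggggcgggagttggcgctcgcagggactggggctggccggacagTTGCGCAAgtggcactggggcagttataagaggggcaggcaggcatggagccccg
*Cidec*, chr6:113434765-113435014, minus strand: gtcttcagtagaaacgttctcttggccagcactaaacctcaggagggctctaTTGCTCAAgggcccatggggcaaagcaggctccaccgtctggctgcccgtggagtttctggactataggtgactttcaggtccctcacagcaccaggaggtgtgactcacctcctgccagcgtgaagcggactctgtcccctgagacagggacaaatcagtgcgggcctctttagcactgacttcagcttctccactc
*Plin1*, chr7:79732777-79733026, minus strand: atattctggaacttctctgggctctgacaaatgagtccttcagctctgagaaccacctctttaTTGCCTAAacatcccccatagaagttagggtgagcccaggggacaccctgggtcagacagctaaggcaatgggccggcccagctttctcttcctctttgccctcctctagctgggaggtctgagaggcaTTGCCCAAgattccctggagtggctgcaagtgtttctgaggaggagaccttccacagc
The match lies 55 bases before the start in *Lep*, 198 bases in *Cidec*, and 187 and 58 bases in *Plin1*. A match is a description of the letters and not a bound site.

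Detection of the set differed between the arrays. Of the 10 genes, 9 were well above background on the *Pla2g3*+/+ vehicle array, 8 on the -/- vehicle array, 6 on the +/+ AOM array and 8 on the -/- AOM array. *Cfd*, *Retn*, *Plin4*, *Cidec*, *Fabp4* and *Pparg* were well above background on all 4 arrays. *Adipoq* and *Plin1* fell short of it on the +/+ AOM array only, *Lipe* was well above background on the +/+ vehicle array only, and *Lep* on no array. Of 11 markers of white adipocytes, 7 of which are members, 9 and 10 were well above background on the +/+ and -/- vehicle arrays and 8 and 9 on the AOM arrays. Their summed level was 15.5, 34.1, 0.48 and 6.15 on the arrays labelled +/+ vehicle, -/- vehicle, +/+ AOM and -/- AOM, the order of arrays used below. *Cfd* alone made up 7.25, 19.2, 0.0193 and 1.99 of these sums. Of 10 markers with a ratio of -/- over +/+, 9 lay above 0 and 1 below with vehicle, and 8 above and 2 below after AOM.

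**Figure D1:**
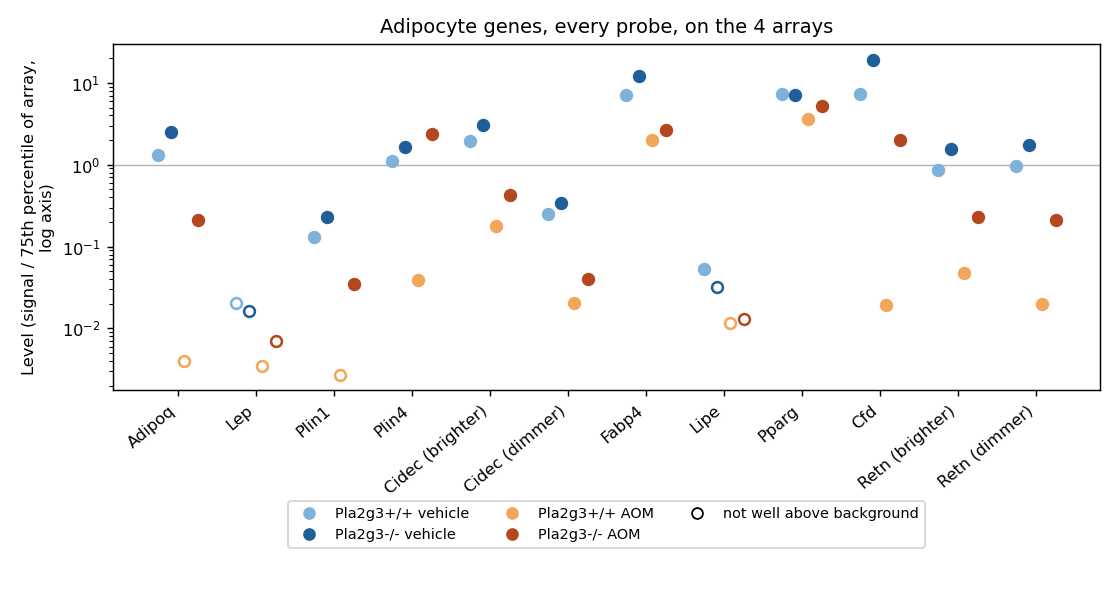
Level of each probe of the 10 adipocyte genes on the 4 arrays, as signal over the 75th percentile of the array on a log axis, with 1 point per array and open points where the probe was not well above background. Points are to be compared within a probe: the +/+ AOM array has the lowest point for all 12 probes, and the -/- vehicle array has the highest point for 8 of them.

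*Cfd* and *Adipoq*, both adipokines, showed the widest differences between AOM and vehicle in +/+. *Cfd*, which encodes adipsin or complement factor D, a protease of the alternative complement pathway, had a level of 7.25 on the +/+ vehicle array, 19.2 on the -/- vehicle array, 0.0193 on the +/+ AOM array and 1.99 on the -/- AOM array. The +/+ AOM array was thus far below the other three, and its signal there was 25.3, while the dimmest signal counted as above background on that array was 16.45. With AOM the level was 375-fold lower in the +/+ pool and 9.61-fold lower in the pool labelled -/-. That last log2 ratio of -3.26 was -1.86 with the +/+ vehicle array in place of the -/- vehicle array that carries acinar genes. The -/- level was 2.64-fold above the +/+ level with vehicle and 103-fold above it after AOM. In bulk tissue, fewer adipocytes, less RNA per adipocyte and a change in other cells that express the gene cannot be told apart. This holds for *Cfd* and for every other member.

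*Adipoq* encodes adiponectin, a hormone made by adipocytes. Its level was 1.33, 2.52, 0.00402 and 0.211 in the order given above. It was not well above background on the +/+ AOM array, and the ratios to that array are bounds, taken against the dimmest signal that counted as above background there. The level was at least 106-fold lower with AOM than with vehicle in +/+ and 12-fold lower in -/-. The -/- pool was 1.9-fold higher with vehicle and at least 16.8-fold higher after AOM. These bounds hold for the limit of detection used here, and the log2 ratios of -6.73 and 4.07 behind them were -5.62 and 2.96 with a higher floor under dim signals and -3.20 and 1.24 with normexp background correction.

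*Retn* encodes resistin, an adipokine named for its effect on insulin action. The brighter probe had levels of 0.868, 1.55, 0.0479 and 0.232, and the dimmer probe 0.965, 1.74, 0.02 and 0.213. Both probes had the same order of arrays. They gave nearly the same genotype difference with vehicle, 1.79-fold and 1.8-fold higher in -/-, and different sizes where the +/+ AOM array was involved. In +/+ the AOM level was 18.1-fold below the vehicle level by the brighter and 48.1-fold by the dimmer probe, and the -/- excess after AOM was 4.84-fold and 10.6-fold. In -/- the AOM level was 6.7-fold and 8.17-fold below the vehicle level.

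*Lep* encodes leptin, the hormone by which fat signals its stores to the brain. Its probe was printed in 10 spots on each array, and 5, 0, 1 and 0 of them were well above background, and since no array had more spots above background than below, the gene was taken as not measured. The level was 0.0206, 0.0162, 0.00346 and 0.00698. With outlier-marked spots included, the spots ran from 0.013 to 0.0367 on the +/+ vehicle array and from 0.00256 to 0.0158 on the +/+ AOM array. Of the 10 spots on the +/+ AOM array 9 were used, with a median of 0.00325 over all spots and a log2 SD of 0.35 over those used. The highest spot, at 0.0158, lay outside that spread, and the 2 ranges overlapped only through it. No ratio is given for *Lep*.

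Among the proteins of the droplet surface, *Plin1* encodes perilipin 1, the gatekeeper of lipolysis on the adipocyte droplet. Its level was 0.131, 0.232, 0.00273 and 0.0346, the order seen for *Adipoq*, and the +/+ AOM array was again not well above background. It was at least 10.4-fold lower with AOM in +/+ and 6.72-fold lower in -/-. The -/- pool was 1.78-fold higher with vehicle and at least 2.75-fold higher after AOM. With a floor placed under dim signals, that last log2 ratio was 0.36, within 2-fold.

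*Cidec* encodes CIDEC or FSP27, which enlarges droplets by fusing them. The brighter probe had levels of 1.95, 3.04, 0.176 and 0.425, and the dimmer probe 0.25, 0.337, 0.0205 and 0.0399. The arrays kept 1 order by both probes. With AOM the level was 11.1-fold and 12.2-fold lower in +/+, and 7.14-fold and 8.45-fold lower in -/-, by the brighter and the dimmer probe. The -/- pool was 1.56-fold and 1.35-fold higher with vehicle, and 2.42-fold and 1.95-fold higher after AOM, so that only the brighter probe was past 2-fold there.

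*Plin4* encodes perilipin 4, which coats small nascent droplets. Its level was 1.1, 1.63, 0.0395 and 2.38, and unlike the other members it was highest on the -/- AOM array. It was 27.8-fold lower with AOM in +/+ but 1.46-fold higher with AOM in -/-, within 2-fold. The -/- excess was 1.49-fold with vehicle and 60.2-fold after AOM. The AOM difference between the genotypes was thus 5.34 log2 units larger than the vehicle difference for *Plin4*, compared with 5.29 for *Cfd*, at least 3.14 for *Adipoq*, 1.44 for the brighter probe of *Retn*, at least 0.63 for *Plin1* and 0.63 for the brighter probe of *Cidec*. The values for *Adipoq* and *Plin1* hold only for the limit of detection used here. With a floor under dim signals, *Plin1* had log2 excesses of 0.83 with vehicle and 0.36 after AOM. With normexp background correction they were 0.55 and 0.37, so that in both settings the *Plin1* excess was smaller after AOM. These differences of differences rest on 1 array per group and were not tested.

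*Fabp4*, a cytosolic fatty acid carrier, had levels of 7.08, 12.3, 2.02 and 2.68. Its order of arrays was that of *Adipoq*, but both AOM arrays lay close together. It was 3.5-fold lower with AOM in +/+ and 4.59-fold lower in -/-. The -/- excess was 1.74-fold with vehicle and 1.33-fold after AOM, the only member with a measured ratio in both whose log2 excess was smaller after AOM, with a difference of -0.39. *Lipe*, which encodes hormone-sensitive lipase, had levels of 0.0529, 0.0322, 0.0116 and 0.0129 and was well above background on the +/+ vehicle array alone. By its own dim signal it was 1.64-fold lower on the -/- vehicle array than there, which is not a bound. That log2 ratio of -0.72 was -0.18 with normexp background correction. On the +/+ AOM array it was at least 4.21-fold lower than on the +/+ vehicle array. For *Lipe* no ratio is given between the other arrays.

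*Pparg* encodes the nuclear receptor that is required for adipocyte formation. Its probe was printed in 10 spots per array, all well above background, and the median level of the spots was 7.45, 7.11, 3.7 and 5.29. The spots ran from 6.79 to 8.11 and from 6.7 to 7.6 on the vehicle arrays, which overlapped, from 3.37 to 3.89 on the +/+ AOM array and from 4.69 to 5.78 on the -/- AOM array. The log2 ratio was -0.06 ± 0.027 (SE over spots, n = 10 spots) for -/- over +/+ with vehicle, 0.52 ± 0.03 after AOM, -1.01 ± 0.029 for AOM over vehicle in +/+ and -0.44 ± 0.028 in -/-. These errors cover the array and not the mice. The direction of the AOM ratios depended on the scaling: without scaling between arrays they were 0.01 in +/+ and 0.41 in -/-, since the signals themselves were 4783, 4626, 4808 and 6141. The range of *Pparg* over the arrays was narrow beside that of *Cfd* or *Adipoq*.

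**Figure D2:**
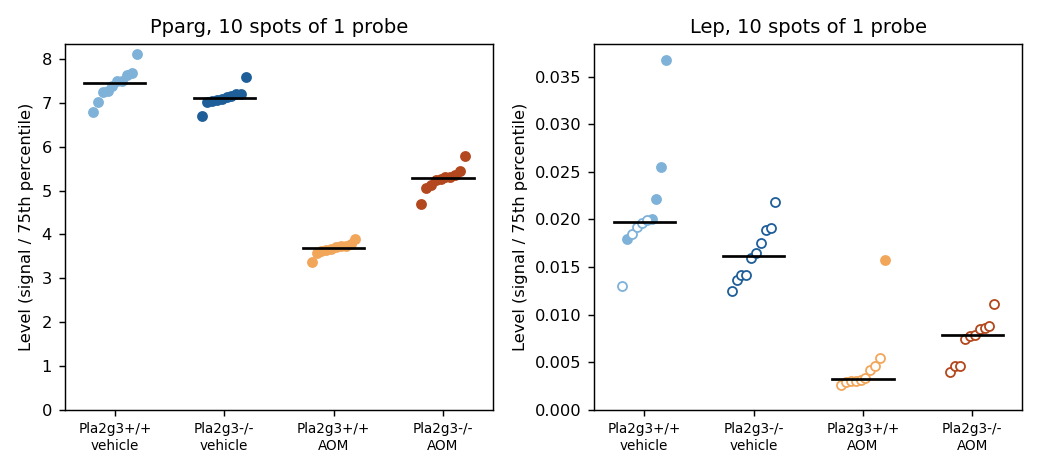
Level (signal over the 75th percentile of the array, linear axes from 0) of each of the 10 spots of the Pparg and Lep probes on the 4 arrays, with a line at the median and open points for spots not well above background; spots marked as outliers are drawn. The Pparg spots of the 2 vehicle arrays overlap and those of the AOM arrays lie apart below them, while nearly all Lep spots are open.

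With vehicle, *Cfd* alone of the members was past 2-fold between the genotypes. Of 9 members with a ratio, 1 was over 2-fold higher in the pool labelled -/- and none was over 2-fold lower, against 1.92% of all genes over 2-fold higher and 1.32% lower. The other members with a positive ratio lay between 1.49-fold for *Plin4* and 1.9-fold for *Adipoq*, and *Pparg* and *Lipe* were below 1. The median log2 ratio was 0.80, beside -0.02 over all genes. The markers of pancreatic acinar cells moved with this difference: their summed level was 16.2 and 54.2 on the +/+ and -/- vehicle arrays, and *Amy2a5*, which encodes an amylase, had a level of 0.00882, not well above background, and 34.7. Their part in the adipocyte result was not tested.

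After AOM, 6 of 8 members with a ratio were over 2-fold higher in the pool labelled -/- than in +/+, namely *Cfd*, *Plin4*, *Adipoq*, *Retn*, *Plin1* and *Cidec*, and none was lower. Over all genes 15.1% were over 2-fold higher and 12.9% lower. The median was 1.87 with bounds entered at their limit, beside 0.03 over all genes. *Pparg* and *Fabp4* were within 2-fold, and *Lep* and *Lipe* had no ratio. *Plin1* and *Cidec* were within 2-fold with normexp background correction, which left 4 members higher and a median of 1.04, and *Plin1* with a floor under dim signals, which left 5. All members with a ratio in this comparison lay above 0. For *Adipoq* and *Plin1* this was fixed by the rule for bounds, which gives no ratio in the other direction.

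Between AOM and vehicle in +/+, all 9 members with a ratio were over 2-fold lower, and 22.3% of all genes were. That count was 7 without scaling and with normexp, 8 with quantile normalization or a floor under dim signals, and 10 with no filter on dim probes. The median was -3.47, beside -0.17 over all genes, and the values ran from -1.01 for *Pparg* to -8.55 for *Cfd*. In -/-, 6 of 8 members were over 2-fold lower, with 15.1% of all genes, and the median was -2.75, beside -0.08. The other 2 were *Pparg*, at -0.44, and *Plin4*, at 0.54. No member was over 2-fold higher in either genotype, where 15.1% and 9.64% of all genes were. The 2 AOM comparisons shared no array, whereas each shared one with both genotype comparisons. *Adipoq*, *Plin1*, *Cidec*, *Fabp4*, *Cfd* and *Retn* were over 2-fold lower in both, as were 8.02% of 16035 genes with a value in both.

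*Adipoq*, *Plin1*, *Cidec*, *Fabp4*, *Cfd* and *Retn* had 1 order of levels, highest on the -/- vehicle array, then +/+ vehicle, -/- AOM and +/+ AOM. This order was shared by 10.5% of 15398 genes well above background on both vehicle arrays. *Plin4*, *Pparg*, *Lipe* and *Lep* departed from it, *Plin4* by its high -/- AOM level and *Pparg* and *Lipe* by a vehicle level that was not higher in -/-. For *Fabp4* the last step, between the AOM arrays, was 1.33-fold, and for *Pparg* the step between the vehicle arrays was 1.04-fold.

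Other genes known from adipocytes were set beside the members, 26 of them on a list that left the members out. Of 23 with a ratio in +/+, 15 were over 2-fold lower and 3 over 2-fold higher with AOM (median -1.44), and of 25 in -/-, 18 were lower and none higher (median -1.49). Over all genes 22.3% were lower and 15.1% higher in +/+, and 15.1% and 9.64% in -/-. These shares also stand beside the AOM counts of the lists below. *Car3*, a carbonic anhydrase abundant in fat, had levels of 2.48, 5.39, 0.0486 and 0.765, the order of *Adipoq*. *Pck1*, an enzyme of glycerol and glucose synthesis also known in intestinal epithelium, had levels of 4.43, 3.8, 0.0433 and 1.35, and it was lowest on the +/+ AOM array without being higher in -/- with vehicle. *Rarres2*, which encodes the adipokine chemerin and had the highest mean signal of the list, was 2.21-fold and 2-fold lower with AOM in +/+ and -/-.

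The list was less uniform between genotypes. With vehicle 5 of 25 were over 2-fold higher in -/- and none lower (median 0.39). After AOM 7 of 22 were over 2-fold higher and 6 lower in -/- (median 0.12). Over all genes 1.92% were higher and 1.32% lower in -/- with vehicle, and 15.1% and 12.9% after AOM. *Adrb3*, the beta-3 adrenergic receptor of adipocytes, was at least 17.8-fold higher in -/- after AOM. *Hp*, which encodes the acute phase protein haptoglobin, was 12.4-fold lower, with levels of 0.614, 1.38, 5.87 and 0.473, and *Apln*, which encodes apelin, 20.7-fold lower, with levels of 0.0698, 0.0508, 1.27 and 0.0613. *Adig*, which encodes the adipocyte protein adipogenin, was 1.7-fold lower in -/- after AOM, opposite to *Adipoq* and *Plin1*, with levels of 0.241, 0.426, 0.0888 and 0.0523.

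The genes of lipid handling that many cells use departed from the members. Of 16 genes of triglyceride synthesis, 3 were over 2-fold lower and 2 higher with AOM in +/+ (median -0.08), and 7 lower and 1 higher in -/- (median -0.37). The shares over all genes were 22.3% lower and 15.1% higher in +/+, and 15.1% and 9.64% in -/-. *Agpat2*, an acyltransferase with the highest mean signal of these, had levels of 24.4, 28, 17.7 and 13.9, and *Fasn*, the fatty acid synthase, was 3.37-fold and 2.3-fold higher with AOM in +/+ and -/-. Of 12 other droplet proteins, 3 of 11 with a ratio in +/+ and 3 of 12 in -/- were over 2-fold lower with AOM. *Plin5*, perilipin of oxidative tissue, was 5.38-fold higher with AOM in +/+ and 3.88-fold lower in -/-, opposite in sign to *Plin4* in both. Its signal on the -/- AOM array was not well above background.

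In lipolysis, the list of 11 genes held *Lipe* itself. *Pnpla2*, the adipose triglyceride lipase that acts before the *Lipe* product and is found in many tissues, had levels of 8.5, 8.54, 6.55 and 8.95, within 2-fold on all arrays. *Adrb3* was at least 27.1-fold lower with AOM in +/+ and 2.37-fold lower in -/-, and *Mgll*, the lipase of the last step, 6.53-fold and 2.37-fold lower. *G0s2*, an inhibitor of the *Pnpla2* product, was 2.03-fold higher with AOM in +/+ and 1.94-fold lower in -/-. Over the list, 4 of 11 were over 2-fold lower and 2 higher in +/+, and 3 of 10 lower and 1 higher in -/-.

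The relatives of *Fabp4* moved in different directions. *Fabp2*, the carrier of intestinal enterocytes, had levels of 133, 156, 0.614 and 6.1, *Fabp6*, the ileal bile acid carrier, 2.21, 2.6, 0.0867 and 2.08, and *Fabp5*, the epidermal carrier, 5.08, 6.32, 11.6 and 2.36. *Fabp5* was thus 2.29-fold higher with AOM in +/+ where *Fabp4* was 3.5-fold lower. The list of 12 genes of uptake and transport had 6 over 2-fold lower and 1 higher in +/+, and 5 lower and none higher in -/-. *Lpl*, the lipase that frees fatty acids from lipoproteins for uptake by fat, had levels of 1.58, 3.01, 0.776 and 0.571, and was 1.9-fold higher in -/- with vehicle, as was *Adipoq*.

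The resistin-like genes, relatives of *Retn*, differed from it and from each other. *Retnlb*, a product of goblet cells, had levels of 181, 167, 1.18 and 0.595. *Retnla*, known from alternatively activated macrophages, had levels of 3.54, 1.65, 0.0031 and 7.44, the +/+ AOM array not well above background, and it was highest on the -/- AOM array as was *Plin4*. *Retnlg*, known from neutrophils and marrow, had levels of 0.0959, 0.214, 0.987 and 0.0203, highest on the +/+ AOM array where *Retn* was lowest.

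The partners of *Pparg* were followed on a list of 15 other transcription factors of adipocyte formation. With AOM, 6 were over 2-fold lower and 1 higher in +/+ (median -0.80), and 1 lower and 2 higher of 15 in -/- (median 0.17). *Cebpd*, an early factor with the highest mean signal, stayed between 11.1 and 12.8 on the 4 arrays. *Cebpb*, the other early factor, had levels of 1.43, 1.66, 4.48 and 1.94, highest on the +/+ AOM array where *Pparg* was lowest. *Ppara*, the receptor of fatty acid oxidation, had levels of 1.17, 1.08, 0.0873 and 0.607, and was 13.4-fold lower with AOM in +/+ and 1.78-fold lower in -/-.

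A further list of 10 genes held receptors of adipokines and insulin, their adaptors, and *C3* and *Cfb*, complement components on which the *Cfd* product acts. Of these, none was over 2-fold lower with AOM in either genotype, while 2 and 3 were higher in +/+ and -/-. *Adipor2* and *Adipor1*, the adiponectin receptors, were 1.91-fold and 1.82-fold lower with AOM in +/+ and 1.03-fold and 1.06-fold lower in -/-. *Cdh13*, which encodes T-cadherin, a binding protein of adiponectin on vessels, had levels of 0.442, 0.574, 3.53 and 1.24 and was 7.98-fold and 2.16-fold higher with AOM. *Lepr*, the leptin receptor, was measured on all arrays at levels of 3.84, 4.18, 2.3 and 2.24, 1.67-fold and 1.87-fold lower with AOM, although *Lep* was not measured.

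Brown fat and the epithelial targets of PPARG were looked at last among the lipid lists. *Ucp1*, the uncoupling protein that defines brown adipocytes, and *Elovl3*, an elongase of brown fat, were not well above background on any array. *Cox7a1*, a cytochrome oxidase subunit of brown fat and muscle and the list's highest mean signal, had levels of 30.6, 35.6, 2.64 and 12.1. Of 12 targets of PPARG known in epithelium, 4 were over 2-fold lower and none higher with AOM in +/+ (median -0.86), and 5 lower and none higher in -/- (median -0.84). *Aqp8*, a water channel of colonocytes, had levels of 93.4, 99.4, 0.358 and 54.1. *Aqp8* was 261-fold lower with AOM in +/+ while *Pparg* itself was 2.02-fold lower.

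Markers of other cells moved with the AOM results. Beside their counts, here and in the next paragraph, stand the shares over all genes. With AOM 22.3% were over 2-fold lower and 15.1% higher in +/+, and 15.1% and 9.64% in -/-. All 10 smooth muscle genes were over 2-fold lower on the +/+ AOM than on the +/+ vehicle array, with a median of -4.34 and summed levels of 518, 543, 31.2 and 498, and in -/- none was lower and 1 higher (median -0.10). Of 12 colonocyte genes, 9 were over 2-fold lower in +/+ (median -3.19) and 3 in -/- (median -0.01), and their summed levels were 885, 873, 91.5 and 476. *Plin4* was low on the +/+ AOM array alone, a pattern seen in the medians of both the smooth muscle and the colonocyte list. By contrast, *Adipoq*, *Cfd*, *Retn*, *Plin1*, *Cidec* and *Fabp4* were also lower in -/-. Other lists were lower in -/- too. All 12 acinar genes were over 2-fold lower there (median -5.26), and 3 of 9 were in +/+ (median -0.71), with summed levels of 1.47 and 1.29 on the +/+ and -/- AOM arrays. Of the lymph node and B cell genes, 6 of 8 were lower in -/- (median -2.76) and 6 of 9 in +/+ (median -1.40), with summed levels of 4.28, 3.81, 1.44 and 0.786. The part of these cells in the adipocyte results was not tested.

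Capillary endothelium and macrophages are cells in which *Fabp4* is also known, and their summed levels were highest on the +/+ AOM array, where that of *Fabp4* was lowest. Of 10 endothelial genes, 6 were over 2-fold higher and none lower with AOM in +/+ (median 1.15), with summed levels of 11, 13.2, 17 and 8.84, and in -/- 2 were higher and 1 lower (median 0.05). Of 9 macrophage genes with a ratio, 8 were over 2-fold higher (median 1.25), with summed levels of 13.8, 17.7, 29.2 and 12, and *Cd163* was not well above background on any array. In -/-, 3 of 9 macrophage genes were over 2-fold lower and 1 higher (median -0.63). Genes of adventitial fibroblasts and preadipocytes had summed levels of 32.6, 31.4, 36.4 and 30.1, with 5 of 10 over 2-fold lower and 1 higher in +/+. In -/- none of these was lower and 2 were higher (median 0.44). Of the mesothelial genes, 7 of 8 were lower in +/+, and the exception was *Msln*, mesothelin, with levels of 0.371, 0.284, 3.32 and 0.0236. In -/-, 3 of 7 mesothelial genes with a ratio were over 2-fold lower and 1 higher (median -0.91).

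**Figure D3:**
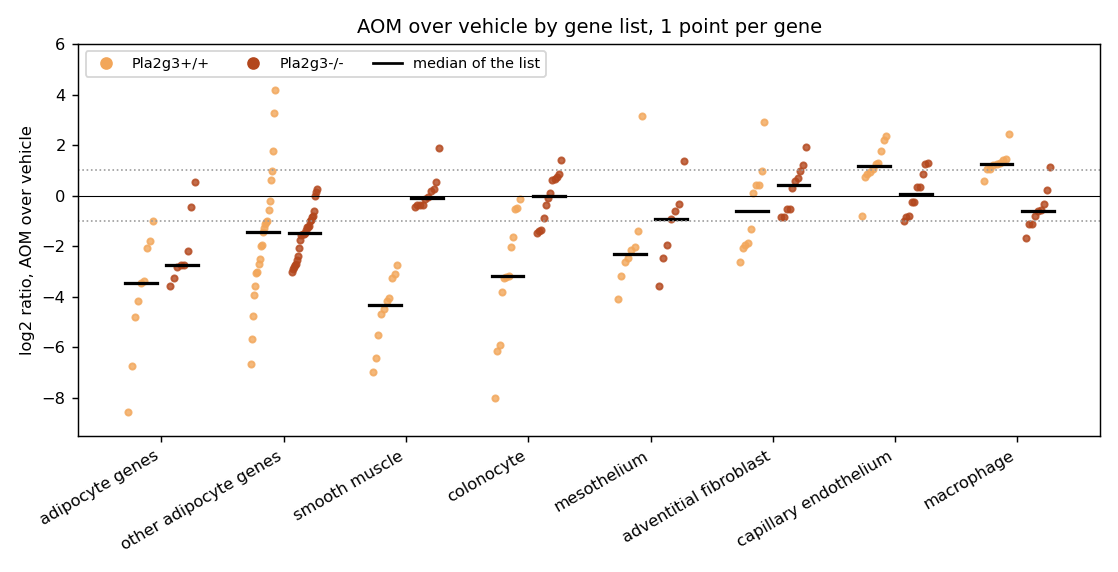
Log2 ratio of AOM over vehicle for each gene of the members and 7 other lists, with bounds drawn at their limit, dotted lines at 2-fold and a bar at the median of the list. The member medians are -3.47 in Pla2g3+/+ and -2.75 in Pla2g3-/-, while those of smooth muscle are -4.34 and -0.10 and those of colonocytes -3.19 and -0.01.

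Genes most like a member were sought among 14714 genes well above background on all 4 arrays, by the root mean square difference of the log2 levels after each gene was centred on its own mean. *Fabp4* stood for the set by the rule, since *Adipoq* and *Plin1* were not measured on all arrays. Nearest were *Myl4* at 0.04, an atrial myosin light chain with levels of 1.01, 1.75, 0.282 and 0.405, then *Mageb1* at 0.13 and *Myrip* and *Npvf* at 0.14. For *Plin4*, chosen after its values were seen, they were *Synm* at 0.23, *Maob* at 0.25, *Igfbp2* and *Synpo2* at 0.27 and *Pgm5* at 0.31. Next came *Slc5a8* at 0.32 and *Cyp2c68* at 0.34. *Synm*, which encodes the muscle filament protein synemin, had levels of 5.13, 4.99, 0.163 and 8.67. For *Cfd*, chosen likewise, they were *Btnl1* at 0.69, *Cyp2c55* at 0.72, *Gm1123* at 0.79 and *Aqp8* at 0.88, and none of these was higher in -/- with vehicle by more than 1.06-fold where *Cfd* was by 2.64-fold. The measure rests on 4 arrays.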

How the data were processed

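RNA of pooled mouse colon from 4 groups, 1 pool and 1 array each, was labelled with Cy3 (27.7 ng RNA) and hybridized to Whole Mouse Genome arrays on 1 slide. Spot intensities were deposited by the authors, processed with Agilent Feature Extraction 11.5.1.1 according to the submitters' processing notes, per the file headers corrected for background and not scaled between arrays. The p-value deposited for each spot is the software's test against background, from which its call "well above background" derives. The authors also deposited a table of ratios, which equals the intensity over the array's 75th percentile within 0.018%, as checked here, and serves as an alternative.

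Control spots and outlier-marked spots were not used, log2 intensities of replicate spots were averaged, and the 75th percentile over spots was subtracted. A probe counted as well above background where more of its spots were than were not. Where 1 side of a ratio was not, it was set to the higher of its own signal and the dimmest signal above background on that array. The ratio was written as "at least" where the latter was used. Where both were not, none was given, nor where the side not well above background came out as the higher one. Probes took gene names from a RefSeq table of GRCm38.p6 by accession, else by symbol, and 31051 matched. The brightest probe over the 4 arrays stood for a gene. Groups came from the sample labels. With 1 array per group no test was possible, and a 2-fold threshold was used, as in the study. The number of arrays limits the precision. Motif windows and upstream sequences came from RefSeq GRCm38.p6.

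All members and probes are named. Of each other list, the genes with the highest mean signal or the largest change were named, or genes chosen as partners or relatives of a member after values were seen. Members and lists were chosen with earlier results of these data known. The self-test on simulated data recovered the changes put in. Alternatives were other scalings, quantile normalization, normexp background correction with limma 3.58.1 in R 4.3.3, other treatments of dim signals, other probes per gene, the deposited table and thresholds of 1.5-fold and 4-fold. Scripts used Python 3.11.15, pandas 2.3.3, numpy 2.4.6, scipy 1.17.1 and matplotlib 3.10.9.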

Additional observations from a re-analysis of the deposited data

Results flagged for a closer look

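The AOM ratio of *Plin4* ran in opposite directions in the genotypes, with a log2 ratio of AOM over vehicle of -4.80 in *Pla2g3*+/+ and 0.54 in the pool labelled *Pla2g3*-/-. The genotype ratio of *Pparg*, -/- over +/+, was -0.06 with vehicle and 0.52 after AOM. Each is a difference in sign between 2 pairs of arrays with 1 array per group, and neither difference was tested. The *Pparg* spots of both vehicle arrays overlapped.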

How the results depend on the processing

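No paired analysis was possible because each group had 1 array, and for the same reason no array could be left out of a group. Of the member counts and medians under the alternatives, 134 kept within 1.5 times (counts) or kept their sign and their side of 2-fold (medians). The other 5, all counts, did not. The median log2 ratio lay between 0.55 and 0.85 for -/- over +/+ with vehicle, 1.04 and 2.43 after AOM, -3.82 and -2.45 for AOM over vehicle in +/+, and -2.89 and -1.86 in -/-. With vehicle, -/- over +/+, a threshold of 1.5-fold gave 6 members higher and 1 lower, and one of 4-fold gave 0 higher. For AOM over vehicle in -/-, 1 member, *Plin4*, was over 2-fold higher without scaling (1.39), and 1 with the +/+ vehicle array in place of the -/- vehicle array that carries acinar genes (1.12), an alternative chosen after seeing the data. *Pparg* changed sign without scaling, to 0.01 in +/+ and 0.41 in -/-. Without scaling the median of all genes for AOM over vehicle shifted by 1.04 in +/+ and 0.84 in -/-, and with quantile normalization by 0.16 and 0.11. Single genes fell below 2-fold as follows. Normexp gave 0.37 for *Plin1* and 0.90 for *Cidec* in -/- over +/+ after AOM, and -0.35 for *Lipe* and -0.67 for *Pparg* in AOM over vehicle in +/+. A floor under dim signals gave 0.36 for *Plin1* and -0.97 for *Lipe* in the same comparisons, the dimmer probe gave 0.96 for *Cidec*, quantile normalization -0.69 for *Pparg*, and no scaling -0.79 for *Fabp4*. The cause of these changes was not tested. Of the values of single members, 329 others kept their direction and their side of 2-fold. Many of these could not change, so that the number does not measure robustness. The deposited table holds the same ratios, and the choice of probe cannot move a gene with 1 probe. Ratios measured on both arrays stay as they are with no filter on dim probes, or with only probes above background on both arrays. The same limit applies to the counts and medians. The widest ranges were at the +/+ AOM array: for -/- over +/+ after AOM, *Adipoq* ran from 1.24 to 5.71, *Cfd* from 4.15 to 6.76, *Plin4* from 4.03 to 5.98 and *Retn* from 1.17 to 3.41, and for AOM over vehicle in +/+, *Adipoq* ran from -8.37 to -3.20 and *Cfd* from -8.58 to -5.71. Signals near background limit *Lep*, *Lipe* and every ratio of *Adipoq* and *Plin1* to the +/+ AOM array.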
